A study of Mus musculus with 8 samples.

Results

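The inhibitors of Wnt signaling examined here were 10 genes, *Notum*, *Apcdd1*, *Dkk1*, *Dkk2*, *Dkk3*, *Wif1*, *Sfrp1*, *Sfrp2*, *Nkd1* and *Nkd2*, chosen by symbol from the 27036 genes of a mouse prostate RNA-seq count table. Not all of them are secreted. Apcdd1 is a membrane protein, and Nkd1 and Nkd2 act inside the cell. RNA was sequenced from 3 WT prostates, 3 prostates with prostatic intraepithelial neoplasia (PIN) and 2 prostatic adenocarcinomas (PCa). The labels number the libraries of a group as replicates and do not say whether each came from a different mouse. The PIN and PCa mice were R26mTmG/hAR:Osr1Cre/+, in which a floxed human androgen receptor transgene (hARtg) at the Rosa26 locus is switched on by Cre from the *Osr1* promoter, and in which an mTmG reporter marks cells that have met Cre. The controls are labelled only as WT; the paper describes them as matched for sex and age in its text, and as reporter and Cre carriers without the transgene in a figure legend. The line was kept on a mixed C57BL/6 and 129S1/SvImJ background, no age is given for these libraries, and the lesions were selected under the microscope. Only Osr1-lineage cells carry the activated transgene, which is no gene of the mouse table and was not analysed here.

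Wnt proteins are lipid-modified ligands that bind Frizzled receptors with the co-receptors LRP5 and LRP6 and thereby stabilize β-catenin, which enters the nucleus and acts with TCF/LEF factors on target genes. Antagonists act at each step. Notum removes the lipid from the ligand, Wif1 and the Sfrp proteins bind the ligand, Dkk1 and Dkk2 bind the co-receptors, Apcdd1 binds at the receptor complex, and the Nkd proteins bind Dishevelled in the cytoplasm. Several of these genes, *Notum*, *Apcdd1* and *Nkd1* among them, are also known as transcriptional targets of β-catenin, so that their RNA is often read as a feedback output of the pathway. In the developing prostate, Wnt signals pass between mesenchyme and epithelium, and *Sfrp1* and *Sfrp2* are typically stromal genes.

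Total counts ranged from 21751803 in WT 1 to 29730420 in WT 3, and levels are given as CPM, that is, counts on a common library size after edgeR's TMM scaling. Some libraries stood apart. WT 1 and PCa 1 held 14563 and 3730 summed CPM of 5 seminal vesicle genes, against at most 285 in the others, and WT 2 had the highest luminal sum of all, 34096 CPM. Probasin (*Pbsn*), a defining product of the luminal prostate cell, was at 6552 to 23970 CPM in WT and 6690 to 13100 CPM in PIN but only at 8.53 CPM in PCa 1 and 60.8 CPM in PCa 2. The library numbers in the labels fall in 3 series, with WT 1 alone, WT 2 and WT 3 together, and all PIN and PCa libraries together. Whether these are batches is not stated; if they are, a difference from WT and one between series cannot be told apart, while PCa against PIN lies within 1 series.

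Of the 10 antagonists, 9 were among the 14034 genes tested, which exceeded 1 CPM in 2 or more libraries; for this limit alone, CPM was scaled to total counts without TMM. *Dkk1* did not pass. It had 8 counts in PCa 1, or 0.257 CPM, and 0 counts in the other 7 libraries, where 3 counts, about the 95% upper limit for a count of 0 from counting error alone, would be 0.103 to 0.148 CPM. In bulk tissue, fewer cells of a type and less RNA per cell cannot be told apart, and this holds for each value that follows.

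**Figure D1:**
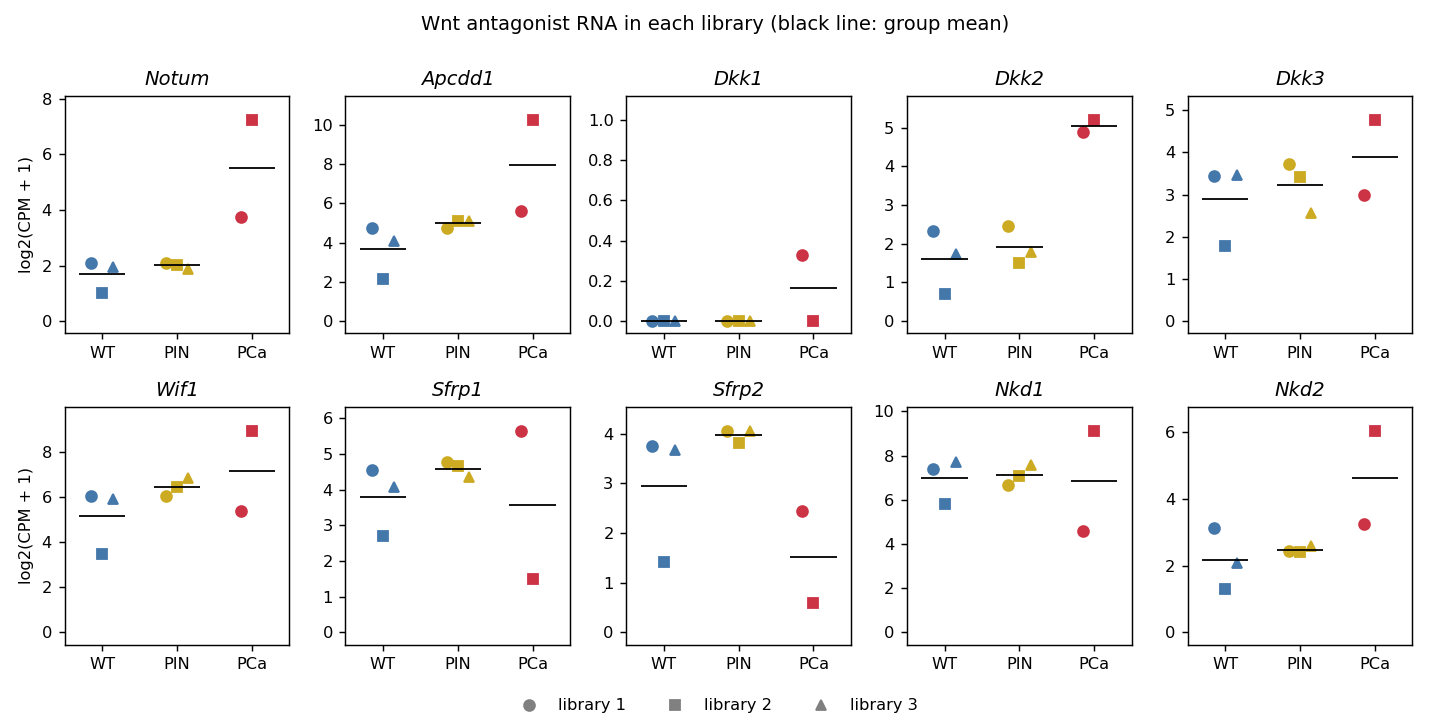
Level of each of the 10 Wnt antagonists in each library as log2(CPM + 1), with 3 WT, 3 PIN and 2 PCa libraries per panel, 1 marker shape per library number and a black line at the group mean. Both PCa libraries lie above every WT and PIN library for *Notum*, *Apcdd1*, *Dkk2* and *Nkd2*, and on opposite sides of them for *Sfrp1* and *Nkd1*.

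*Notum*, the extracellular carboxylesterase that inactivates Wnt by removing its lipid, lies at chr11:120515102-120522489 on the minus strand of mm9. It was at 3.26, 1.04 and 2.82 CPM in WT 1, 2 and 3 and at 3.31, 3.07 and 2.71 CPM in PIN 1, 2 and 3. It reached 12.5 CPM in PCa 1 and 150.2 CPM in PCa 2. WT and PIN overlapped, and both tumors lay above all 6 of the other libraries. The fitted log2 fold change was 5.10 ± 0.95 (SE) in PCa against WT (edgeR's quasi-likelihood test, Benjamini-Hochberg adjusted p over all genes tested = 0.0228) and 4.74 ± 0.94 in PCa against PIN (edgeR adjusted p = 0.0334). With PCa 2 left out, PCa 1 alone gave 2.41 against WT, which still passed, and 2.06 against PIN, which did not (edgeR adjusted p = 0.0830). The call against WT was also lost without WT 1, WT 2, WT 3 or PIN 3 (edgeR adjusted p = 0.0592, 0.0547, 0.0812 and 0.0522), and that against PIN without WT 1, WT 3, PIN 1, PIN 2 or PIN 3 (0.0545, 0.0663, 0.106, 0.121 and 0.139). Gene models on the opposite strand, 4732444A12Rik and Gm11768, overlap *Notum* by 2019 and 3274 bases, and since the strand setting of the counting is not stated, their reads cannot be told apart from those of *Notum*. 4732444A12Rik had 0 to 2 counts in each WT and PIN library, 31 in PCa 1 and 304 in PCa 2, and Gm11768 had 11 in PCa 2 and 0 elsewhere. *Notum* itself had 23 to 92 counts in WT and PIN, 388 in PCa 1 and 4380 in PCa 2.

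*Apcdd1*, a membrane glycoprotein that binds Wnt and the co-receptor LRP5, was at 26.1, 3.44 and 15.8 CPM in the 3 WT libraries and at 25.4, 33.6 and 33.6 CPM in the 3 PIN libraries. PCa 1 held 48.3 CPM and PCa 2 held 1215 CPM. WT and PIN overlapped through WT 1, and both tumors were above all other libraries. *Apcdd1* rose by 5.39 ± 1.27 on the log2 scale in PCa against WT (edgeR adjusted p = 0.0412). The difference from PIN, 4.35 ± 1.21, did not pass (edgeR adjusted p = 0.0800). Without PCa 2, the log2 fold change against WT was 1.69 and did not pass (edgeR adjusted p = 0.218). The call was also lost without WT 1, WT 2 or WT 3 (edgeR adjusted p = 0.0805, 0.0842 and 0.128) and without PIN 1, PIN 2 or PIN 3 (0.0756, 0.0740 and 0.0798), whereas without PCa 1 the difference from PIN passed at 5.31 (0.00667).

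*Dkk2*, a secreted ligand of the LRP co-receptors that can block or, in some settings, promote Wnt signaling, lies at chr3:131748256-131843257 on the plus strand of mm9. It was at 4.05, 0.634 and 2.34 CPM in WT, at 4.54, 1.83 and 2.45 CPM in PIN, and at 28.3 CPM in PCa 1 and 35.8 CPM in PCa 2. The 2 tumors were close to each other, differing by a factor of 1.26, and were 12.1 and 15.3 times the WT mean. *Dkk2* rose by 3.77 ± 0.72 on the log2 scale against WT (edgeR adjusted p = 0.0235) and by 3.45 ± 0.71 against PIN (edgeR adjusted p = 0.0363). The call against WT was lost without WT 3 or PIN 3 (edgeR adjusted p = 0.0863 and 0.0530), and that against PIN without WT 3, PIN 1, PIN 2, PIN 3 or PCa 2 (0.0735, 0.0816, 0.130, 0.154 and 0.0595). Its log2 fold change stayed between 3.20 and 4.42 in both comparisons whichever library was left out.

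*Dkk3*, a divergent member of the family whose tie to Wnt signaling is less settled, was at 9.84, 2.45 and 10.03 CPM in WT and at 12.2, 9.64 and 4.93 CPM in PIN. It was at 6.95 CPM in PCa 1, within the range of both groups, and at 26.4 CPM in PCa 2, above it. Its log2 fold changes of 1.16 ± 0.75 against WT and 0.90 ± 0.75 against PIN did not pass (edgeR adjusted p = 0.357 and 0.523). Without PCa 2 they were -0.08 and -0.34.

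The bases just upstream of the start site are shown for some of these genes, since the TCF/LEF core can be looked for there. Of the β-catenin targets named above, only *Nkd1* has a window here, and its sequence is not printed. The search thus does not cover *Notum* or *Apcdd1*. Windows from RefSeq's table for GRCm38.p6 were used for 6 of the 10, *Dkk1*, *Dkk2*, *Wif1*, *Sfrp2*, *Nkd1* and *Nkd2*. No window was used for *Notum*, *Apcdd1*, *Dkk3* and *Sfrp1*. For *Apcdd1* this does not show that the table lacks the gene. Each window is the 250 bases before the start, read 5′ to 3′ on the gene's strand, at chr19:30549497-30549746 (minus) for *Dkk1*, chr3:132085042-132085291 (plus) for *Dkk2*, chr10:121033754-121034003 (plus) for *Wif1* and chr13:73847632-73847881 (minus) for *Nkd2*. Capitals mark CTTTGTT, which together with CTTTGAT was searched on both strands as the TCF/LEF core, and TATAAA, which was added after the sequences had been seen and was read as TTTATA on the other strand.
Dkk2: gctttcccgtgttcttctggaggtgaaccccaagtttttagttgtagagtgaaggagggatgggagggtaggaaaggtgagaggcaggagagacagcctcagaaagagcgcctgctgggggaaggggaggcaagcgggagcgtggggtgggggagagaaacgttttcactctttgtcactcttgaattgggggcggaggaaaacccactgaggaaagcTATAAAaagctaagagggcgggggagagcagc
Dkk1: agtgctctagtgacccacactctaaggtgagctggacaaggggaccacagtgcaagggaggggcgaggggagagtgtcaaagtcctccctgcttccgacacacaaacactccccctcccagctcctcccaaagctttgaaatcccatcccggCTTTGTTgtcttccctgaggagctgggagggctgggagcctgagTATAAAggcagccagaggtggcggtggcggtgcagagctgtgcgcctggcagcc
Wif1: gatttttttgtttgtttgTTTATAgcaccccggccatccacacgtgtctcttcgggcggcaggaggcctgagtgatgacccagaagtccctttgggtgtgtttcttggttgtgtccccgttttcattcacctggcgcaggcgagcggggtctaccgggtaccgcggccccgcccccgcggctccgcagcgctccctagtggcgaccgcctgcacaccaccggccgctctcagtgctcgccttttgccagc
Nkd2: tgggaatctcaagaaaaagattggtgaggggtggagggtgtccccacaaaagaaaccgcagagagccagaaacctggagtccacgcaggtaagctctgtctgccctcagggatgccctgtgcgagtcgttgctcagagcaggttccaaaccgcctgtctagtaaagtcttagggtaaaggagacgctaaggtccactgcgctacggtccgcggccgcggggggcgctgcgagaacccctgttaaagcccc

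*Dkk2*, the member whose 2 tumor levels were most alike among the 9 tested, held TATAAA 32 bases before its start and neither TCF/LEF core in this window. *Dkk1* held CTTTGTT 98 bases and TATAAA 54 bases before its start, and *Wif1* held TATAAA on the opposite strand 232 bases before. The windows of *Nkd1*, *Nkd2* and *Sfrp2* held none of these letters. Of 32851 windows of the same length, 8.06% held CTTTGAT or CTTTGTT and 12.4% held TATAAA. A match is a description of the letters and not of a bound site.

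*Wif1*, a secreted protein that binds Wnt through its WIF domain, was at 64.7, 10.01 and 59.4 CPM in WT and at 64.3, 86.3 and 112 CPM in PIN. PCa 1 held 40.2 CPM, inside the WT range and below PIN, and PCa 2 held 481 CPM, above all other libraries. The log2 fold changes of 2.54 ± 1.01 against WT and 1.57 ± 0.99 against PIN did not pass (edgeR adjusted p = 0.152 and 0.389). The value turned on which tumor was used. With PCa 2 alone, *Wif1* was higher than WT by 3.44 and passed (edgeR adjusted p = 0.0238), and with PCa 1 alone the log2 fold change was -0.14 against WT and -1.10 against PIN.

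*Sfrp1* and *Sfrp2*, which bind Wnt through a Frizzled-like domain, were the tested antagonists with their lowest level in PCa 2. *Sfrp1* was at 22.6, 5.57 and 16.0 CPM in WT, at 26.2, 24.2 and 19.4 CPM in PIN, at 49.2 CPM in PCa 1 and at 1.85 CPM in PCa 2. One tumor was thus above, and the other below, all 6 of the other libraries. The fitted differences, 0.79 ± 1.05 against WT and 0.13 ± 1.06 against PIN, did not pass (edgeR adjusted p = 0.671 and 0.958). With PCa 2 as the lone tumor, the log2 fold change of *Sfrp1* was -2.98 against WT and -3.63 against PIN, and both passed (edgeR adjusted p = 0.0435 and 0.0279).

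*Sfrp2* was at 12.5, 1.68 and 11.7 CPM in WT and at 15.6, 13.1 and 15.6 CPM in PIN. It was at 4.44 CPM in PCa 1 and at 0.514 CPM in PCa 2. All PIN libraries lay above all WT libraries, and both tumors lay below all PIN libraries, while PCa 1 lay within the WT range because of WT 2. The log2 fold changes of -1.80 ± 1.03 against WT and -2.57 ± 1.06 against PIN did not pass (edgeR adjusted p = 0.300 and 0.204). Without PCa 1, the value against PIN was -4.82 and passed (edgeR adjusted p = 0.0410). A gene model on the other strand, Gm16790, overlaps *Sfrp2* by 464 bases. It had 1 to 10 counts in WT and PIN, 3 in PCa 1 and 9 in PCa 2, where *Sfrp2* had 138 and 15.

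*Nkd1* and *Nkd2* encode Dishevelled-binding proteins of the Naked cuticle family. *Nkd1* was at 165, 55.3 and 210 CPM in WT, at 101, 136 and 192 CPM in PIN, at 23.5 CPM in PCa 1 and at 554 CPM in PCa 2. PCa 1 lay below, and PCa 2 above, all other libraries. The log2 fold change was 1.01 ± 1.04 against WT and likewise 1.01 ± 1.04 against PIN (edgeR adjusted p = 0.576 and 0.616). It was -2.60 and -2.58 with PCa 1 alone, and 1.96 and 1.97 with PCa 2 alone.

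*Nkd2* was at 7.81, 1.45 and 3.26 CPM in WT and at 4.39, 4.31 and 4.97 CPM in PIN. PCa 1, at 8.46 CPM, was just above WT 1, and PCa 2 held 64.7 CPM. Both tumors were thus above all other libraries, but the log2 fold changes of 3.13 ± 0.89 against WT and 3.00 ± 0.88 against PIN did not pass (edgeR adjusted p = 0.0688 and 0.0920). Without PCa 1 they were 3.97 and 3.84 and passed (edgeR adjusted p = 0.00963 and 0.0114).

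Between PIN and WT, 0 of the 9 tested antagonists passed the test, as did 0 of the 14034 genes (0%), where passing edgeR's quasi-likelihood test took an adjusted p under 0.05 and a log2 fold change beyond 1 in either direction. DESeq2 called 0 of the 9 as well. No member had an unadjusted p under 0.05, as 492 of all genes did. The log2 fold changes ran from 0.13 ± 0.79 for *Nkd2* to 1.03 ± 1.04 for *Apcdd1* in 8 genes and were -0.00 for *Nkd1*, with a median of 0.35 beside -0.02 over all genes tested. The groups did not overlap for 1 member, *Sfrp2*, and for 12.9% of all genes. WT 2 was the lowest WT library for all 9 genes, at 0.139 (*Sfrp2*) to 0.343 (*Notum*) times the mean of WT 1 and WT 3, whereas the median log2 difference over all genes between these libraries was 0.06. In WT 2 the summed smooth muscle (2021 CPM), fibroblast (585 CPM), endothelial (65.7 CPM), leukocyte (30.9 CPM) and glial and neural markers (8.07 CPM) were also the lowest of the WT and PIN libraries, and the luminal sum was the highest; the part of these in the members' values was not tested. Without WT 2, the log2 fold change of *Notum* was -0.0037, and those of *Dkk2*, *Dkk3*, *Nkd2* and *Nkd1* were -0.12, -0.16, -0.28 and -0.39.

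Against WT, 3 of the 9 tested antagonists rose in PCa (*Notum*, *Apcdd1* and *Dkk2*) and 0 fell, while 8.54% of all genes tested were called in either direction. The groups did not overlap for 4 members, the same 3 and *Nkd2*, and for 37.3% of all genes. The median log2 fold change was 2.54 in the members and 0.01 over all genes tested. Against PIN, 2 of 9 rose (*Notum* and *Dkk2*) and 0 fell, and 5.72% of all genes were called. The groups did not overlap for 5 members, 4 of them higher in PCa and *Sfrp2* lower, and for 44.3% of all genes. The median was 1.57 in the members and 0.07 over all genes. The 3 comparisons share libraries, and so the counts against WT and against PIN are not separate evidence.

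**Figure D2:**
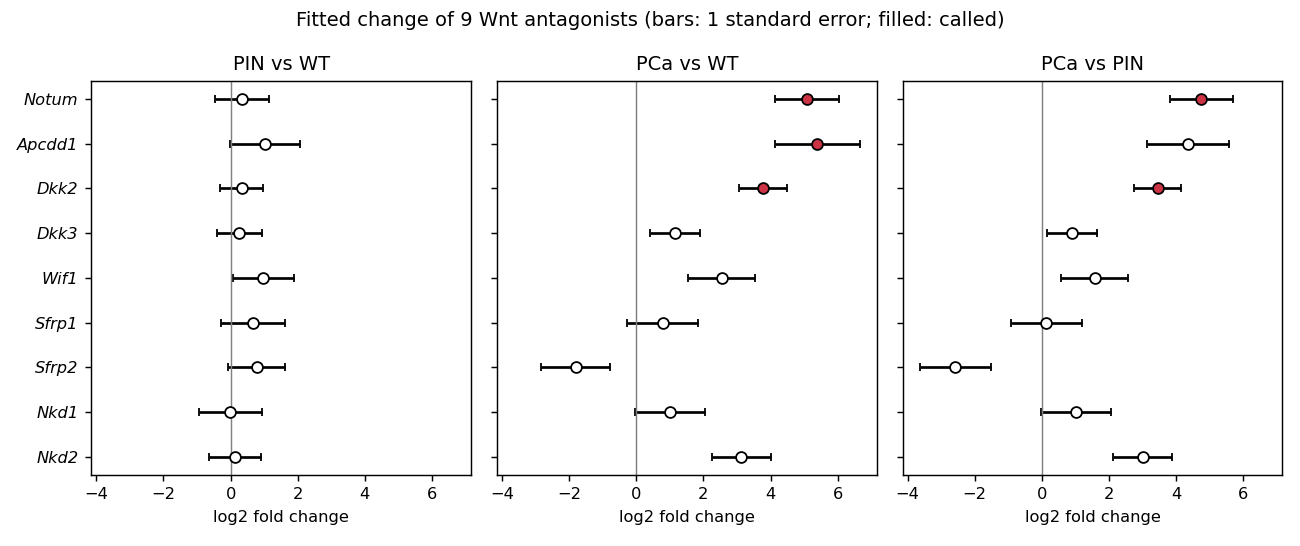
Fitted log2 fold change of the 9 tested antagonists in each of the 3 comparisons, with bars of 1 standard error and filled points for genes called. *Notum*, *Apcdd1* and *Dkk2* are filled in PCa against WT, *Notum* and *Dkk2* in PCa against PIN, and none in PIN against WT.

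The 2 tumors differed from each other in most of these genes. PCa 2 held 12.03 times the CPM of PCa 1 for *Notum*, 25.1 times for *Apcdd1*, 11.97 times for *Wif1*, 23.6 times for *Nkd1*, 7.64 times for *Nkd2* and 3.79 times for *Dkk3*. In the opposite direction, PCa 1 held 26.6 times the CPM of PCa 2 for *Sfrp1* and 8.63 times for *Sfrp2*. On the log2(CPM + 1) scale, 6 of the 9 tested members differed by more than 2 between the tumors, as did 11.7% of all genes tested, and the median absolute difference was 3.49 in the members and 0.53 over all genes. With 1 library for each tumor, these differences have no replicate check.

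**Figure D3:**
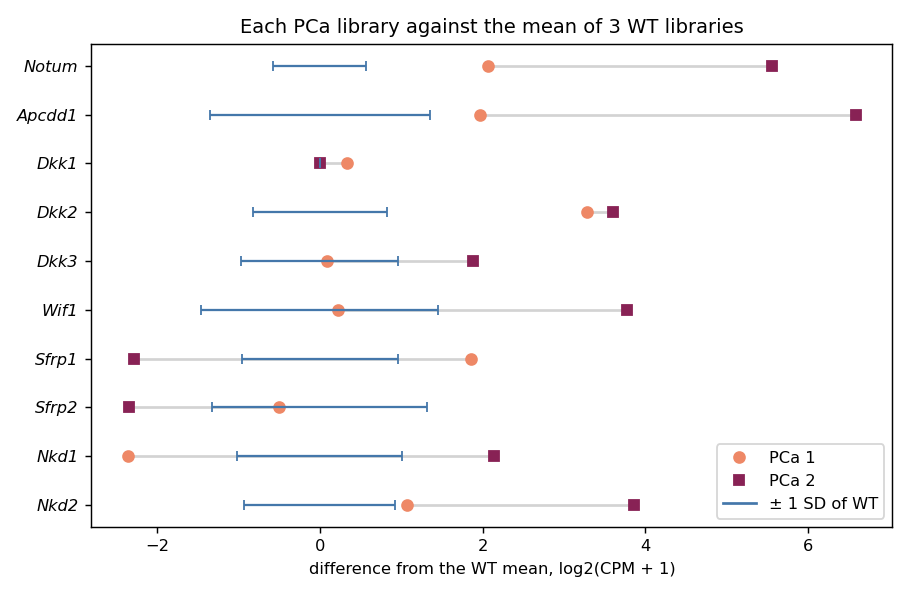
Difference of each PCa library from the mean of the 3 WT libraries on the log2(CPM + 1) scale, 1 line per antagonist, with blue bars of 1 SD of the WT libraries around 0. *Dkk2* is the gene with both tumors close together and far from WT (3.28 and 3.61), while *Sfrp1* (1.86 and -2.28) and *Nkd1* (-2.36 and 2.15) lie on opposite sides of 0.

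Cell type markers also differed between the libraries. The 6 smooth muscle markers summed to 2021 to 4863 CPM in WT, 3197 to 5859 CPM in PIN, 42.5 CPM in PCa 1 and 19.7 CPM in PCa 2, and 6 of 6 were called lower in PCa in both comparisons, with a median log2 fold change of -6.85 against WT. The 7 fibroblast markers summed to 585 to 1142 CPM in WT, 844 to 1058 CPM in PIN, 820 CPM in PCa 1 and 297 CPM in PCa 2, and 0 of 7 were called. PCa 2, where *Sfrp1* and *Sfrp2* were lowest, also had the lowest sums of fibroblast, basal (27.4 CPM of 4 genes, against 604 in PCa 1 and 167 to 387 in WT and PIN) and leukocyte markers (19.3 CPM of 6 genes, against 146 in PCa 1). None of the smooth muscle, fibroblast or basal markers was at 0 in any library. The part of these cell types in the antagonists' levels was not tested.

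**Figure D4:**
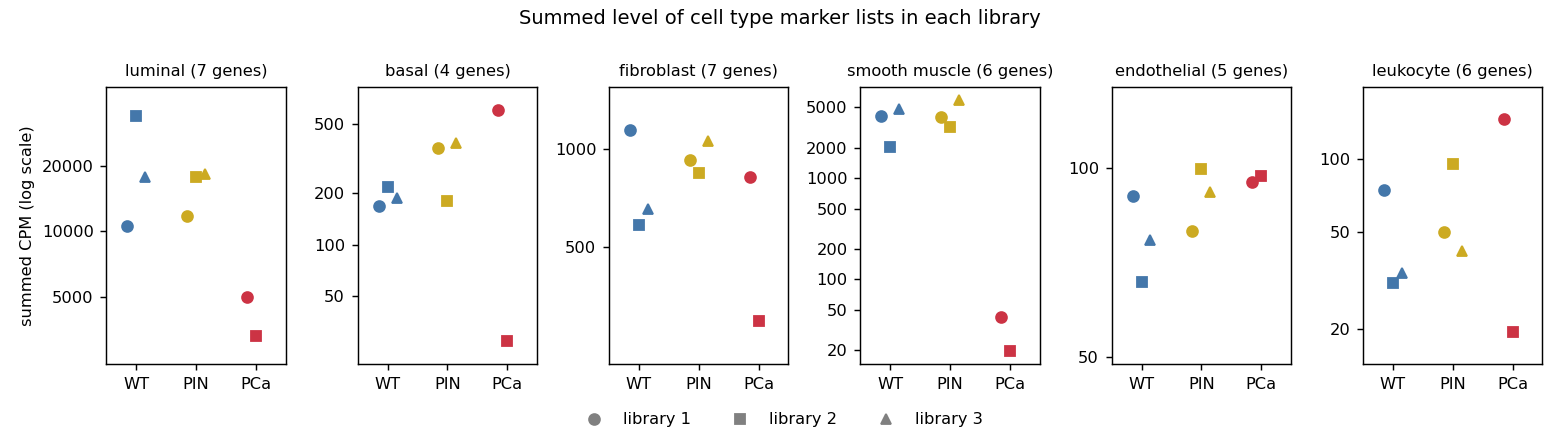
Summed CPM of 6 cell type marker lists in each library on log axes, with 3 WT, 3 PIN and 2 PCa libraries per panel. Smooth muscle sums are at 42.5 and 19.7 CPM in the tumors and at 2021 CPM or more elsewhere, and the basal, fibroblast and leukocyte sums are lowest in PCa 2.

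Per exon length, as TPM, which allows levels of different genes to be compared, the 10 genes together made up 289, 53.6 and 311 TPM in WT, 270, 333 and 382 TPM in PIN, 264 TPM in PCa 1 and 3373 TPM in PCa 2. The sum in PCa 1 thus lay within the range of the WT libraries, and that in PCa 2 above all others. In WT the order of the mean TPM was *Nkd1* (103), *Wif1* (59.3), *Apcdd1* (17.3), *Sfrp2* (12.9), *Sfrp1* (10.7), *Dkk3* (7.08), *Notum* (3.12), *Nkd2* (2.78), *Dkk2* (2.02) and *Dkk1* (0), and in 8 of the 9 neighbouring pairs the ranges overlapped, although 7 of the 9 pairs had the same order within each WT library. In PIN *Wif1* (122) and *Nkd1* (108) overlapped at the top, with *Wif1* higher within each of the 3 libraries, *Nkd2* (3.27) and *Dkk2* (2.70) overlapped near the bottom, and the other 7 pairs did not. In PCa *Apcdd1* (893), *Wif1* (425) and *Nkd1* (256) led, 7 of 9 pairs overlapped between the 2 tumors, and 5 of 9 had the same order within both.

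The share of each gene in the sum also varied between libraries. *Nkd1* was 40.7% to 57.8% of the summed TPM in WT, 7.60% in PCa 1 and 14.6% in PCa 2. *Dkk2* was at most 1.21% in WT, 11.1% in PCa 1 and 1.14% in PCa 2, and *Apcdd1* was at most 10.2% in WT, 24.9% in PCa 1 and 51.0% in PCa 2. *Notum* was 1.28% to 2.02% in WT and made up nearly the same share of both tumors, 7.49% and 7.33%. *Sfrp1* was 16.2% in PCa 1 and 0.0498% in PCa 2.

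**Figure D5:**
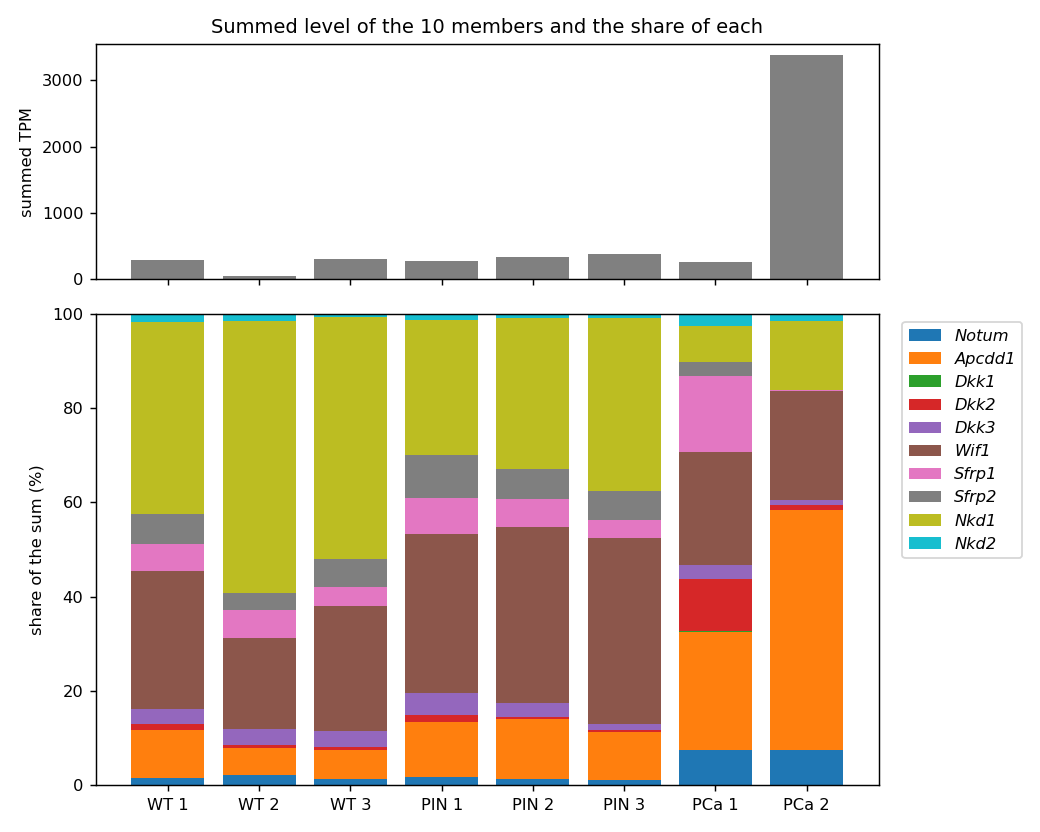
Summed TPM of the 10 antagonists in each library (top, from 0) and the share of each gene in that sum in percent (bottom). The sum is 3373 TPM in PCa 2 and at most 382 TPM in the others, and *Nkd1* is the largest share in each WT library while *Apcdd1* is the largest in both tumors.

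Across the 8 libraries, *Apcdd1* and *Nkd2* (r = 0.98), *Notum* and *Nkd2* (0.97) and *Notum* and *Apcdd1* (0.95) had the highest Pearson correlations of log2(CPM + 1) among the members, and *Sfrp1* and *Sfrp2* had 0.76 with each other. *Dkk2* had 0.89 with *Notum* and 0.07 with *Nkd1*. These are descriptions over libraries that fall into groups, and they share the library with the highest level of most members, PCa 2. Among all genes tested, the closest to *Notum* were *Hunk* (0.996), *Neb* (0.993) and Gm16119 (0.990). For *Apcdd1* they were *Tet2* (0.986), *Ppp2r2b* (0.984) and *Zfp385a* (0.984), and for *Dkk2* *Mybl2* (0.995), *Styk1* (0.993) and *Stil* (0.992). *Hunk*, a protein kinase gene, was at 3.08 to 7.59 CPM in WT and PIN, 19.4 CPM in PCa 1 and 117 CPM in PCa 2. *Stil*, a centriole duplication gene, was at 0.589 to 2.38 CPM in WT and PIN and at 8.24 and 9.40 CPM in the tumors.

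Other genes of the pathway were read from the same fit. A further 20 genes were listed by symbol as antagonists or negative feedback genes, and their action on Wnt was not checked here. Of these, 15 were tested, and 1 rose and 1 fell in each PCa comparison. The gene called higher against WT was *Draxin*, which binds Wnt co-receptors (edgeR adjusted p = 0.0418). It was at 0.965 CPM in PCa 1 and 1.27 CPM in PCa 2, and at most at 0.0989 CPM in WT and 0.207 CPM in PIN. *Draxin* reached the limit for testing only through the tumors and was under 3 counts in each WT library, so its call is no support for a difference and no fold is given. *Dkkl1* rose against PIN by 3.58 (edgeR adjusted p = 0.0300), with 0.866 to 2.20 CPM in PIN and 26.7 and 7.34 CPM in the tumors, PCa 2 lying within the range of WT (3.67 to 7.61 CPM). *Sost*, a secreted blocker of LRP5 and LRP6, fell in both (edgeR adjusted p = 0.0216 against WT and 0.0331 against PIN). It had 1 count in the 2 tumors together against 332 in WT, a CPM ratio of 0.00348 with a 95% exact counting interval of 8.79e-05 to 0.0195. Against the 248 counts of PIN the ratio was 0.00558, with an interval of 0.000141 to 0.0314, and both intervals cover counting error only.

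Of 21 genes for ligands and their release, 11 were tested. *Wnt4* and *Wnt10a* rose against WT, by 4.63 and 2.15 (edgeR adjusted p = 0.0186 and 0.0445), and none of the 11 passed against PIN. *Wnt4* was at 3.35 to 8.95 CPM in WT, at 58.0, 9.89 and 13.03 CPM in PIN 1, 2 and 3, and at 147 and 173 CPM in the tumors. Of 18 receptors and co-receptors, 16 were tested, and 1 of these, *Fzd6*, rose in both PCa comparisons, by 1.83 against WT and 1.92 against PIN (edgeR adjusted p = 0.0350 and 0.0390). It was at 17.8 to 44.3 CPM in WT and PIN, 145 CPM in PCa 1 and 86.0 CPM in PCa 2. Of 6 glypicans 5 were tested, and of 12 genes of the cytoplasmic core 12, and 0 of either list passed in any comparison. No gene of any of these lists passed in PIN against WT.

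*Axin2*, *Znrf3* and *Lgr5*, known β-catenin target genes picked from the lists after their values were seen, passed in no comparison. *Axin2*, a scaffold of the complex that degrades β-catenin, was at 85.5 to 164 CPM in WT and PIN, 42.7 CPM in PCa 1 and 681 CPM in PCa 2. *Znrf3*, a ubiquitin ligase that removes Frizzled receptors, was at 37.5 to 75.8 CPM in WT and PIN, 36.5 CPM in PCa 1 and 749 CPM in PCa 2. *Lgr5*, a receptor for R-spondins, was at 15.9 to 60.0 CPM in WT and PIN, 0.129 CPM in PCa 1 and 321 CPM in PCa 2. Each of these 3 genes, like *Nkd1* and unlike *Notum* and *Apcdd1*, was below all WT and PIN libraries in PCa 1, and each was above them in PCa 2.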

How the data were processed

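RNA of 3 WT, 3 PIN and 2 PCa mouse prostate samples, labelled as replicates, was depleted of ribosomal RNA and sequenced as paired-end libraries. The authors trimmed adapters with cutadapt 1.9.1, aligned reads to mm9 with HISAT2 2.1.0 and deposited raw counts per gene from HTSeq 0.6.1, with no normalization. The strand setting and annotation release are not given in the sources used here. A further column that the authors deposited, the total exon length of a gene, is of another kind and served for TPM.

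With edgeR 4.0.16 in R 4.3.3, the quasi-likelihood F-test (default settings) was run on the counts in 1 model of all 8 libraries, with 5 residual degrees of freedom and a common biological coefficient of variation of 0.489. Genes exceeding 1 CPM, scaled to total counts, in 2 or more libraries were kept; printed CPM values use TMM library sizes, and p-values were adjusted by Benjamini-Hochberg over all 14034 genes of a comparison. Called genes had an adjusted p under 0.05 and a log2 fold change beyond 1 in either direction. The standard error is the log2 fold change divided by the root of F. Levels on the log2 scale used a pseudocount of 1 on CPM, which understates changes of low genes. The steps were run on simulated data with less spread than these libraries, so that run does not measure how reliable the calls here are.

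The members, lists and alternatives were chosen with earlier results of these data known. Named were all members, called genes of the pathway lists (at most 4 per list and comparison) and, for each called member, the 3 genes with the nearest pattern. Draxin, Trabd2b and Adgre1 were found under their older symbols through RefSeq. Alternatives (upper-quartile scaling, DESeq2 1.42.0, limma-trend 3.58.1, other filters, the 2 groups alone, a replicate block, no fold limit, each library left out) were run for the members only. Each member for which no promoter window was used has no sequence shown. Protein sequences were not used here.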

Additional observations from a re-analysis of the deposited data

How the results depend on the processing

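Of the 9 tested antagonists, 0 were called in PIN against WT under each of the settings tried. In PCa against WT the count of 3 became 5 with DESeq2, 1 with the replicate block (*Dkk2*), 2 with limma-trend (*Notum* and *Dkk2*) and 0 with only the 2 groups compared, and it was 0 to 6 with each library left out in turn, with 6 without PCa 1 and 0 without WT 3 or PIN 3. In PCa against PIN the count of 2 became 5 with DESeq2, 0 with the replicate block, and 1 each with limma-trend and with only the 2 groups compared (*Dkk2* in both), and it was 0 to 6 with each library left out, with 6 without PCa 1 and 0 without WT 3, any PIN library or PCa 2. The cause was not tested. The members that DESeq2 added were *Wif1* and *Nkd2* against WT, and *Apcdd1*, *Sfrp2* and *Nkd2* against PIN. Dropping the fold limit changed no count. Of the 15 other alternatives, *Dkk2* was called in 12 against WT and 9 against PIN, *Notum* in 9 and 6, and *Apcdd1* in 5 and 2. *Notum*, *Dkk2* and *Apcdd1* stayed higher in PCa under each alternative in both comparisons.

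The labels state no pairing by replicate number. The mean correlation of residuals was 0.08 for libraries of the same number and -0.04 for others. Residuals were centred within small groups and so are tied to each other. These values therefore cannot decide whether the numbers pair the samples. With the replicate block, the log2 fold change of *Sfrp1* in PCa against PIN turned to -0.99. With limma-trend it was -1.25, and in PCa against WT -0.39, while *Nkd1* was -0.12 against WT and -0.27 against PIN. In PIN against WT, *Nkd1* was 0.0176 with upper-quartile scaling, 0.00604 with DESeq2, 0.00524 without a filter and 0.15 with limma-trend.

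With each library left out in turn, the log2 fold changes that changed sign in PIN against WT ranged from -0.0037 to 0.64 for *Notum*, -0.14 to 0.97 for *Dkk2*, -0.16 to 0.55 for *Dkk3*, -0.39 to 0.37 for *Nkd1* and -0.28 to 0.95 for *Nkd2*. In PCa against WT they ranged from -0.0839 to 1.83 for *Dkk3*, -0.14 to 3.44 for *Wif1*, -2.98 to 1.75 for *Sfrp1* and -2.60 to 1.96 for *Nkd1*. In PCa against PIN the ranges were -0.34 to 1.58, -1.10 to 2.47, -3.63 to 1.10 and -2.58 to 1.97 for these 4 genes. Where a PCa library is left out, the lone tumor is assumed to vary like the other groups.

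Each comparison with PCa rests on 2 tumors and 5 residual degrees of freedom, and the tumors differed widely in most members. The part of this spread in the calls was not tested. With scaling to total counts alone, the median log2 difference of all genes from WT was 0.47 in PCa and 0.18 in PIN, where TMM scaling gave -0.00 and 0.01. Counts of 0, as for *Dkk1*, limit it to levels near 0.1 CPM.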
